A study of Mus musculus with 4 samples.

Results

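The genes described here are 9 mouse targets of β-catenin, most of which feed back on Wnt signaling: Axin2, Lgr5, Nkd1, Notum, Tbx3, Znrf3, Rnf43, Tcf7 and Sp5. They were chosen by name as known Wnt/β-catenin targets, with earlier results of these data known. All 9 were present among the 32285 mouse genes counted. Their levels were followed in hepatocyte nuclei along the liver lobule, between libraries, and in nuclei that carried RNA of the injected human oncogenes.

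In the liver, endothelial cells around the central vein secrete Wnt and R-spondin ligands, which stabilize β-catenin in the neighboring (pericentral, zone 3) hepatocytes, and β-catenin with a TCF/LEF factor switches on target genes there. Many of these targets then dampen the signal. Axin2 is a scaffold of the complex that degrades β-catenin, Nkd1 binds and inhibits Dishevelled, Notum is a secreted enzyme that strips the lipid from Wnt ligands, and Znrf3 and Rnf43 are membrane ubiquitin ligases that remove Frizzled receptors. Lgr5 is an R-spondin receptor that counters Znrf3 and Rnf43. Tbx3, Tcf7 and Sp5 are transcription factors, Tcf7 being a TCF/LEF partner of β-catenin itself.

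The study asked how a low-protein diet (LPD) changes liver nuclei of Bl/6 mice injected with c-MET/β-catenin. Nuclei of frozen liver were profiled by single-nucleus RNA sequencing (snRNA-seq), with 1 library for each of 4 groups, control and oncogene on the chow diet (CD) and control and oncogene on the LPD. The methods state that the diet began 1 week before a hydrodynamic tail vein injection and continued for 2 weeks after it, the oncogenes being human c-MET and an N-terminally truncated, active human β-catenin (gene CTNNB1) carried on Sleeping Beauty transposons behind the EF1α promoter, and the controls receiving the vector. The injection reaches part of the hepatocytes, the mice of the study were young adult males unless otherwise stated, and how many mice gave each library is not given in the sources used here. With 1 library per group no difference below has a replicate check, no test was possible, and every interval is a 95% interval for counting error only.

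Transgene UMIs did not follow the CD labels. In hepatocyte nuclei, 94 transgene UMIs (unique molecular identifiers, 1 per captured RNA molecule) in 85 nuclei were found in the library labelled CD control, none in 9675 nuclei of the library labelled CD oncogene (which allows a share of up to 0.031%), none in the 7750 nuclei labelled LPD control (a limit of 0.0387%), and 6 in 6 nuclei of the library labelled LPD oncogene. Here 10397 nuclei of all classes were kept under the label CD control and 12552 under CD oncogene. The numbers that the study states for these groups lie nearer to the opposite assignment. The libraries are therefore named by their labels throughout, and every direction between the CD libraries depends on those labels. Where 4 values are given in a row, they stand for the libraries labelled CD control, then CD oncogene, then LPD control, then LPD oncogene.

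Hepatocyte nuclei were 32217 of 42877 nuclei kept, or 7961, 9675, 7750 and 6831 per library, with median depths of 4783, 4042, 2241 and 2278 UMIs. Depth and the median share of mitochondrial UMIs over all nuclei kept (0.983% to 2.42% in the CD libraries, 0.1% to 0.127% in the LPD libraries) separated the diets, so depth and diet cannot be told apart. Levels are given as CPM, the gene's summed UMIs as a share of those of all mouse genes in the same set of nuclei (counts scaled to a common total, as is usual). They are compared between sets for 1 gene, not between genes, since the genes differ in length. Sums over the 9 genes add their UMIs and so follow mainly Znrf3 and Rnf43. In hepatocyte nuclei labelled CD control these held 12444 and 12308 of the 35895 UMIs of the 9 genes. In those labelled CD oncogene they held 12868 and 6409 of 24456.

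Each library's hepatocyte nuclei were ordered by a zone index, built from 12 pericentral and 12 periportal marker genes that include none of the 9, and divided into 3 equal zones. The zones are ranges and not cell types: 5.93% to 12.6% of a library's nuclei lay within 0.1 SD of a limit between zones. Several pericentral markers are themselves β-catenin targets. Glul, the pericentral glutamine synthetase used in the index, rose from 17.2 CPM in the periportal zone to 1058 CPM in the pericentral zone of the library labelled CD control, and Cyp2f2, a periportal marker, fell from 569 to 42.1 CPM.

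All 9 genes had more UMIs per total in the pericentral than in the periportal zone wherever both zones held UMIs, in all 4 libraries. By the rule used for all genes (at least 50 UMIs over both zones and a log2 ratio of CPM + 1 of at least 1), 9 of 9 were higher pericentrally in the library labelled CD control, where 3.44% of all genes were. The counts were 6 of 7 measurable genes in the library labelled CD oncogene, with a background of 2.4%, 6 of 7 in LPD control, with 2.45%, and 5 of 7 in LPD oncogene, with 2.06%. Nkd1 and Sp5 were too low to be counted in the last 3 libraries. The median log2 ratio of CPM + 1, the scale of all medians given here, was 3.29, 1.56, 2.02 and 1.86 over the 9 members, including those under the 50 UMIs, while that of all genes tested was 0.066, 0.075, -0.0011 and -0.0021.

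Axin2 (chr11:108920349-108950783, plus strand, GRCm38) had 64.7, 14.2, 22.8 and 13.98 CPM in the pericentral zone. In the periportal zone it had 0.809, 0.522, 2.00 and 0.905 CPM, from 5 to 14 UMIs. The pericentral level in the library labelled CD control (interval 60.7 to 68.9) lay above those of the other 3 libraries, whose highest interval ended at 26.6. The log2 ratios between the zones were 6.32, 4.77, 3.51 and 3.95.

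Nkd1 (chr8:88521354-88594884, plus strand) had 34.7 CPM (31.7 to 37.8) in the pericentral zone of the library labelled CD control, from 523 UMIs. The other libraries had 2.05, 4.22 and 4.08 CPM there, from 43, 30 and 26 UMIs. Periportal nuclei held 11, 5, 2 and 1 UMIs, so that the log2 ratio of 5.66 (4.81 to 6.67) in the library labelled CD control was precise and that of 4.50 (1.89 to 9.85) in LPD oncogene was not. Midzonal nuclei held 17, 5, 3 and 5 UMIs, so Nkd1 was barely detected in hepatocytes outside the pericentral zone.

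Notum (chr11:120653788-120661175, minus strand) followed another order. Its pericentral levels were 85.0, 23.3, 152 and 129 CPM, its midzonal levels 34.8, 8.72, 70.3 and 66.0 CPM, and its periportal levels 7.78, 2.82, 36.6 and 34.8 CPM. In each zone both LPD libraries were above both CD libraries, and no intervals of the 2 diets overlapped. The log2 ratio of pericentral over periportal was correspondingly smaller on LPD, 2.06 (1.86 to 2.26) and 1.89 (1.66 to 2.12), than on CD, 3.45 (3.18 to 3.73) and 3.05 (2.64 to 3.48). Notum lies across 2 noncoding genes on the opposite strand, Notumos and Myadml2os.

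Znrf3 (chr11:5276324-5444847, minus strand) had the smallest ratio between zones of the measured members in each library. Its levels were 403, 317, 361 and 391 CPM in the pericentral zone against 185, 184, 204 and 239 CPM in the periportal zone, and the log2 ratios were 1.12, 0.79, 0.83 and 0.71. Rnf43 (chr11:87662722-87735539, plus strand), its paralog, was steeper in the library labelled CD control, with 545 against 89.3 CPM and a log2 ratio of 2.61 (2.53 to 2.69). In the other 3 libraries Rnf43 had 191, 313 and 195 CPM pericentrally, with log2 ratios of 1.58, 1.32 and 1.09. Rnf43 shares its strand with an overlapping gene, 1110028F11Rik, so reads in the overlap are uncertain.

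Lgr5 (chr10:115450311-115587780, minus strand) was steep in each library. It had 267, 133, 200 and 221 CPM pericentrally and 2.67, 2.09, 3.14 and 3.62 CPM periportally. The log2 ratios were 6.64 (6.21 to 7.11), 5.99 (5.55 to 6.48), 5.99 (5.39 to 6.67) and 5.93 (5.30 to 6.65), with intervals that all overlap. Midzonal nuclei had 20.1, 5.55, 8.64 and 14.5 CPM, so that the step from midzonal to pericentral nuclei, 3.73, 4.58, 4.53 and 3.92 on the log2 scale, was wider than that from periportal to midzonal nuclei, 2.91, 1.41, 1.46 and 2.01.

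Tbx3 (chr5:119670669-119684724, plus strand) had 151, 43.1, 137 and 60.6 CPM pericentrally. Here the 2 libraries labelled control were the high ones, on both diets. Its log2 ratios were 5.37, 4.20, 3.62 and 3.39, and its start overlaps the antisense gene Tbx3os1 on the opposite strand. Tcf7 (chr11:52252371-52283014, minus strand) was sparse, with 8.75, 3.54, 7.87 and 7.38 CPM pericentrally from 132, 74, 56 and 47 UMIs. Its log2 ratios were 2.74, 1.83, 1.62 and 0.89, the last of them with an interval of 0.13 to 1.69. Tcf7 was highest in T or NK nuclei, as given below. Summed T cell markers were at 4.42, 7.41, 3.71 and 6.52 CPM periportally and 33.5, 21.9, 3.94 and 5.50 CPM pericentrally. The part of T cell RNA in the Tcf7 counts was not tested. Sp5 (chr2:70474923-70477729, plus strand) had 133 pericentral UMIs, or 8.81 CPM (7.38 to 10.4), in the library labelled CD control and only 11, 6 and 5 in the others, or 0.526, 0.843 and 0.786 CPM. Periportal Sp5 counts were 4, 0, 2 and 0, and 0 UMIs allow up to 0.157 CPM in the library labelled CD oncogene and 0.543 CPM in LPD oncogene.

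These ratios depended on the index, whose pericentral markers include other β-catenin targets, and the cause was not tested. With zones from the 12 periportal markers alone, the log2 ratio of the 9 genes together went from 2.43, 1.503, 1.64 and 1.43 to 1.12, 1.31, 1.22 and 0.91, and the library labelled CD control no longer had the largest. In that library Nkd1 went from 5.66 to 1.39, Axin2 from 6.32 to 2.43, Lgr5 from 6.64 to 3.63, Sp5 from 5.15 to 0.17 and Znrf3 from 1.12 to 0.44. Lgr5 kept ratios of 5.11, 4.17 and 3.83 in the other libraries, and Tcf7 changed sign in LPD oncogene, to -0.24.

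**Figure D1:**
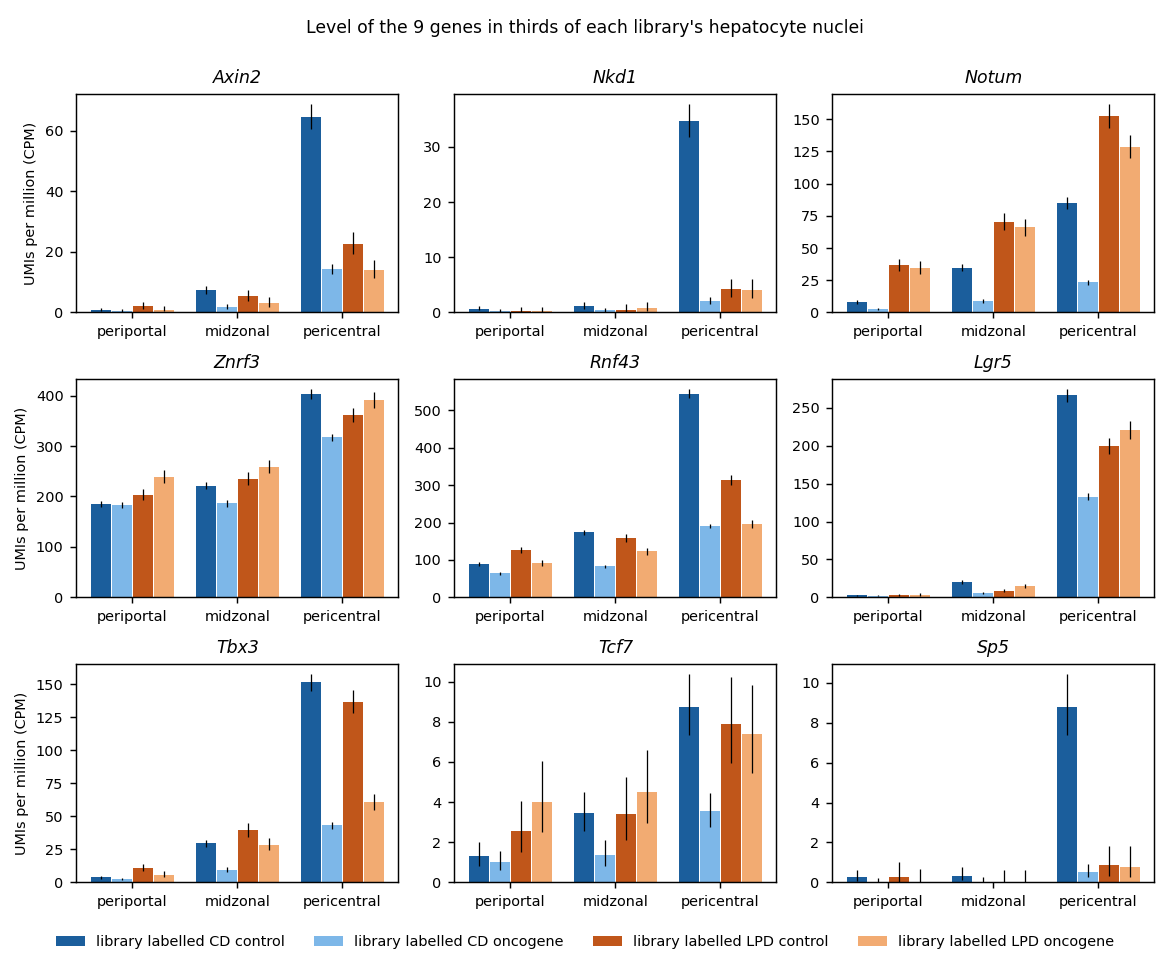
CPM of each gene (vertical axis) in the periportal, midzonal and pericentral zones, each 1 in 3 of a library's hepatocyte nuclei; bars are libraries, error bars exact Poisson 95% intervals. Every gene is highest pericentrally; Axin2, Nkd1 and Sp5 stand out in the library labelled CD control (64.7, 34.7 and 8.81 CPM), and Notum is higher in both LPD libraries in each zone.

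The slope was also followed in finer steps. The nuclei of all libraries were placed on 1 common zone index and divided into 10 bins of equal size over the pooled nuclei. Bin 10 held 1748 nuclei (23.6%) of the library labelled CD control but only 442 (4.76%), 387 (5.09%) and 469 (7.60%) of the others. A different share of pericentral nuclei and a different level of the marker genes cannot be told apart here, since Glul and the periportal marker Pck1 differed between libraries within the same zone (Pck1 12.4, 922, 1869 and 919 CPM pericentrally). Nuclei within bin 10, which has no upper limit, need not have the same index in each library. Lgr5 rose from 62.9, 161, 303 and 262 CPM in bin 9 to 339, 450, 684 and 564 CPM in bin 10. Notum was higher in both LPD libraries than in both CD libraries in each bin. Bins 1, 5 and 10 had 39.95, 97.1 and 231 CPM in LPD control and 27.7, 44.3 and 163 CPM in LPD oncogene. The same bins had 7.36, 10.2 and 102 CPM in the library labelled CD control, the first from 2 UMIs. In the library labelled CD oncogene they had 2.09, 9.93 and 38.2 CPM.

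In bin 10 the order of the libraries differed between genes. Axin2 was at 84.4 CPM (79.02 to 90.1) in the library labelled CD control and at 45.6, 50.4 and 36.3 CPM in the others. Nkd1 was at 47.5 CPM (43.5 to 51.8) against 12.2, 23.6 and 12.3 CPM, Sp5 at 11.5 against 3.21, 3.22 and 2.32 CPM, and Rnf43 at 657 against 315, 510 and 341 CPM. In bin 10 each of these 4 genes was highest in the library labelled CD control, although Sp5 rested on 10, 3 and 3 UMIs in the other libraries, with an interval of up to 9.40 CPM in LPD control. This order did not hold in bin 9, where LPD control had the highest value of each. There Axin2 was at 12.8, 13.5, 30.8 and 15.3 CPM, Nkd1 at 1.92, 0.993, 5.25 and 5.09 CPM, Rnf43 at 242, 216, 374 and 183 CPM, and Sp5 at 1.32, 0.199, 2.25 and 1.27 CPM, from 1 to 11 UMIs of Sp5.

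Lgr5 and Znrf3 went the other way. In bin 10 Lgr5 was lowest in the library labelled CD control, at 339 CPM (328 to 350), and highest in LPD control, at 684 CPM (632 to 739). Znrf3 was at 463, 510, 528 and 540 CPM. Summed over the 9 genes, bin 10 had 1902, 1442, 2261 and 1777 CPM, so the order of the libraries in bin 10 differed from that over whole zones, where the pericentral sums were 1567, 728, 1198 and 1023 CPM.

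**Figure D2:**
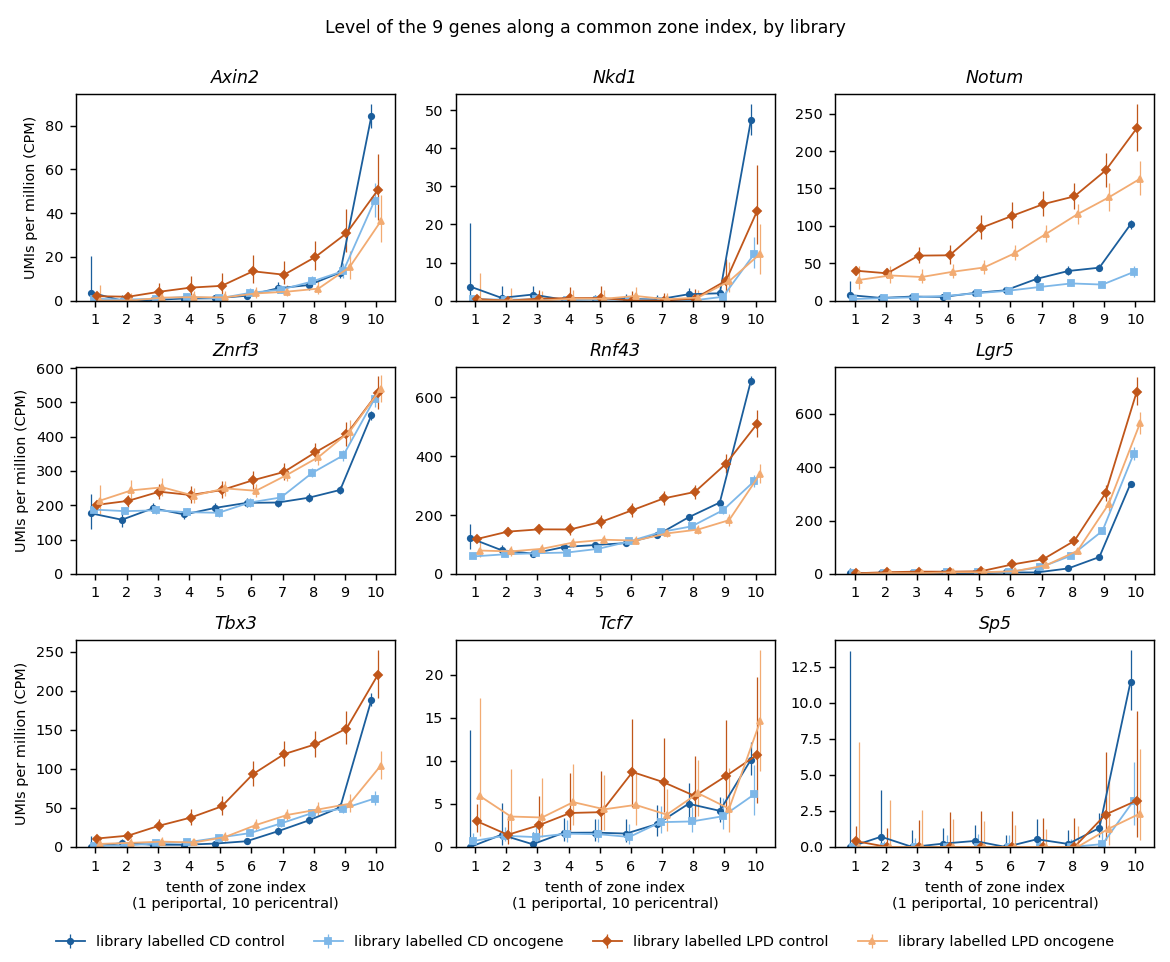
CPM of each gene (vertical axis) in 10 bins of a zone index common to all libraries (horizontal axis, bin 1 periportal, bin 10 pericentral); lines are libraries, error bars exact Poisson 95% intervals. In bin 10 Axin2 and Nkd1 are highest in the library labelled CD control (84.4 and 47.5 CPM), Lgr5 is lowest there (339 CPM), and Notum is higher in both LPD libraries than in both CD libraries in each bin.

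At the level of single nuclei, the genes were sparse. In the pericentral zone, a nucleus had UMIs of 3.20, 1.95, 1.90 and 1.77 of the 9 genes on average, and 58.8%, 34.0%, 32.9% and 27.4% of nuclei had UMIs of at least 3. Thinned to 1000 UMIs per nucleus, with shallower nuclei left out, those shares were 12.7%, 1.55%, 6.69% and 4.52%. The most genes seen in 1 nucleus were 9 in each CD library and 7 in each LPD library.

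Pericentral nuclei with an Lgr5 UMI were 53.8%, 31.4%, 24.7% and 30.4%, or 22.2%, 9.98%, 14.2% and 17.2% after thinning. Kupffer nuclei, macrophages that should lack it, showed it in 0.649%, 1.22%, 0.643% and 0% (0 of 774 nuclei, which allows up to 0.388%), at median depths of 1358, 1278, 831 and 938.5 UMIs. Axin2 was seen in 24.2%, 7.65%, 5.80% and 3.94% of pericentral nuclei, and in at most 0.408% of Kupffer nuclei. Znrf3 was an exception, with 8.36% to 18.0% of Kupffer nuclei against 50.3% to 69.4% of pericentral hepatocyte nuclei. Rnf43 was also seen in Kupffer nuclei, at 32.6, 43.3, 41.6 and 8.76 CPM.

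Between libraries, over all hepatocyte nuclei, the CD pair had the largest median difference of the 4 comparisons. The median log2 ratio of the 9 genes in the library labelled CD oncogene over the one labelled CD control was -1.56, against -0.14 over all genes tested. By the same rule as above 6 of 9 were lower, with 2.94% of all genes, and 0 of 9 higher, with 2.1%. The 6 were Axin2, Nkd1, Notum, Tbx3, Rnf43 and Sp5. With the CD labels exchanged, the direction would be reversed.

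Axin2 was at 23.8, 6.16, 10.2 and 6.18 CPM over all hepatocyte nuclei, and the log2 ratio of the CD pair was -1.95 (-2.13 to -1.77). Nkd1 was at 11.9, 0.969, 1.71 and 1.76 CPM and had a ratio of -3.61 (-4.05 to -3.20). Sp5 was at 3.09, 0.201, 0.392 and 0.266 CPM, with a ratio of -3.94 (-4.98 to -3.06). These 3 genes formed a group chosen after their values were seen: each was at least 1 log2 unit above every other library in the library labelled CD control, which held for 1.48% of all genes.

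Notum was at 41.7, 12.2, 87.4 and 77.8 CPM, with a log2 ratio of -1.77 (-1.90 to -1.64) in the CD pair. Tbx3 was at 60.1, 19.8, 63.7 and 32.3 CPM, with -1.60 (-1.70 to -1.50), and Rnf43 at 264, 117, 200 and 137 CPM, with -1.17 (-1.22 to -1.13). For these 3, and for each of the other members, the library labelled CD oncogene was the lowest of the 4. For Axin2, Nkd1 and Sp5 its interval overlapped that of LPD oncogene. Lgr5, at 94.4, 53.3, 74.2 and 82.0 CPM, differed by -0.82, Tcf7, at 4.40, 2.05, 4.70 and 5.33 CPM, by -1.10 (-1.45 to -0.76), and Znrf3, at 267, 235, 268 and 297 CPM, by -0.18.

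The difference of the CD pair in the sum, most of whose UMIs were those of Znrf3 and Rnf43, was widest in pericentral nuclei. The sum of the 9 genes differed by -1.11 (-1.14 to -1.08) in the pericentral zone, by -0.73 in the midzonal zone and by -0.18 (-0.24 to -0.12) in the periportal zone. Lgr5 and Notum differed most in the midzonal zone, by -1.85 (-2.23 to -1.49) and -1.998 (-2.29 to -1.71). Periportal intervals of Axin2, Lgr5, Nkd1, Znrf3 and Tcf7 included 0. So did that of Sp5, which had 4 periportal UMIs in the library labelled CD control and 0 in the one labelled CD oncogene. Leaving the 85 nuclei with a transgene UMI out of the sums moved the log2 ratio of all 9 together from -0.79 to -0.74. In the library labelled CD control, nuclei without such a UMI had 22.5 CPM of Axin2, 11.3 of Nkd1 and 2.91 of Sp5. Only 8 of the 85 had at least 2 transgene UMIs, and the study detected these transcripts in few cells. The nuclei left can therefore include oncogene-expressing ones.

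Other measures moved with the CD pair. On common limits of the zone index, the pericentral range held 55.4% of the placed nuclei in the library labelled CD control, against 24.6%, 22.5% and 33.4% in the others. The summed T cell markers in its pericentral zone were 33.5 CPM with 6 of 6 markers present, against 21.9 (6 of 6), 3.94 (5 of 6) and 5.50 CPM (6 of 6), while the summed Kupffer markers were 7.02, 7.69, 15.04 and 32.8 CPM, with 6 of 6 present in each. The share of mitochondrial UMIs in the periportal, midzonal and pericentral zones was 7.56%, 6.19% and 3.42% in the library labelled CD control and 3.48%, 3.35% and 1.48% in the one labelled CD oncogene. Under TMM scaling, which rescales libraries by a trimmed mean of the log ratios of genes, the ratio of the sum was -0.65. The part of these measures in the result was not tested.

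In the LPD pair the same comparison gave no call. Of 8 measurable genes, 0 were higher in LPD oncogene, where 1.93% of all genes were, and 0 lower, where 1.02% were, and the median log2 ratio was -0.14 against -0.018 for all genes. Tbx3 came closest, with -0.98 (-1.12 to -0.84), followed by Axin2, with -0.73 (-1.07 to -0.39), and Rnf43, with -0.55 (-0.62 to -0.48). Znrf3 and Lgr5 were slightly higher in LPD oncogene, by 0.15 (0.09 to 0.20) and 0.14 (0.04 to 0.25), and the intervals of Nkd1, Tcf7 and Sp5 included 0.

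Between diets, Notum was the gene with the clearest difference. It was higher on LPD by 1.07 (0.97 to 1.16) between the libraries labelled control and by 2.67 (2.54 to 2.80) between those labelled oncogene. With the CD libraries exchanged, the ratios were 2.84 (2.71 to 2.97) for LPD control over CD oncogene and 0.90 (0.80 to 1.00) for LPD oncogene over CD control, so the direction did not depend on the labels of the CD pair. The difference was widest in the periportal zone, with log2 ratios of 2.24 (1.92 to 2.56) and 3.62 (3.18 to 4.09) for the control and oncogene labels.

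Between the libraries labelled control, 1 of 9 genes (Notum) was higher on LPD, where 7.12% of all genes were, and 3 of 9 (Axin2, Nkd1 and Sp5) were lower, where 7.57% were. The member median was -0.34 and that of all genes 0.095. Between the libraries labelled oncogene, 2 of 8 (Notum and Tcf7) were higher on LPD, where 9.74% were, and 0 lower, where 5.53% were, with medians of 0.49 and 0.21. Both LPD libraries were above both CD libraries for 3 genes, Notum, Znrf3 and Tcf7, a pattern met by 40.5% of all genes, and below them for 0, a pattern met by 22.4%. For Znrf3 the separation was 268 against 267 CPM, within the counting error. Rnf43 was slightly higher between the libraries labelled oncogene, 0.22 (0.16 to 0.29), but lower under TMM scaling, -0.043.

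**Figure D3:**
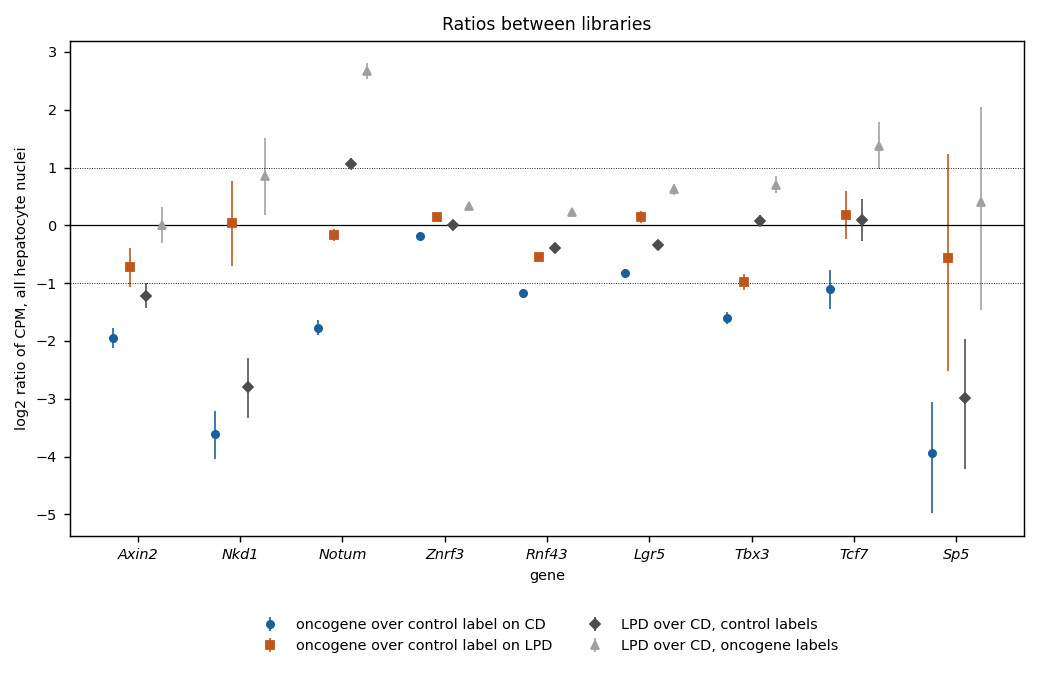
log2 ratio of CPM over all hepatocyte nuclei (vertical axis) for each gene and 4 pairs of libraries; points are the ratios, error bars exact conditional 95% intervals, dotted lines a ratio of 1 either way on the log2 scale. In the CD pair all 9 genes are below 0, with Nkd1 at -3.61 and Sp5 at -3.94, and both comparisons of LPD over CD put Notum above 1.

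Because Axin2, Nkd1 and Sp5 moved together, the sequence around their start sites is shown, from RefSeq on GRCm38.p6. The RefSeq start of Nkd1 used here lies within the GENCODE gene given above. Each window runs 5′ to 3′ on the gene's strand from 250 bases before to 50 bases after the start. Axin2 lies at chr11:108920099-108920398 (plus strand), Nkd1 at chr8:88527383-88527682 (plus strand) and Sp5 at chr2:70474673-70474972 (plus strand). Capitals mark matches to the TCF/LEF core, searched on both strands in 4 forms, which were CTTTGAA first, the variant spelled CTTTGAT next, then the variant spelled CTTTGTA, and last the variant spelled CTTTGTT.
Axin2: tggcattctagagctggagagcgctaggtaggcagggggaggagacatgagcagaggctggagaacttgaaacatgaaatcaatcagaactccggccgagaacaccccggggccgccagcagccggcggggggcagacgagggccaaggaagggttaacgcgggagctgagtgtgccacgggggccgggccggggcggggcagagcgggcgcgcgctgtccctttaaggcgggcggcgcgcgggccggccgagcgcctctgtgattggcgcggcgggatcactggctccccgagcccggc
Nkd1: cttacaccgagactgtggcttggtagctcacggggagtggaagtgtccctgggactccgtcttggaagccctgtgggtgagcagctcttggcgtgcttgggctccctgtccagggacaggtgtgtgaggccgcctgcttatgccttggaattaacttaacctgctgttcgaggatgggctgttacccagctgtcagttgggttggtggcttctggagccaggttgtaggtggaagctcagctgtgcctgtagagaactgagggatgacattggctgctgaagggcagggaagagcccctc
Sp5: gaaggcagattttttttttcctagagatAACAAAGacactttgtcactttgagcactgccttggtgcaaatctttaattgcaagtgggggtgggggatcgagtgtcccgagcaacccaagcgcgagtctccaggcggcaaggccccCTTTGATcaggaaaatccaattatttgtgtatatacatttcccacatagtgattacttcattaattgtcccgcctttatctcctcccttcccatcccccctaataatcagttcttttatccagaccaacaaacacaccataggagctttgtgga

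The Sp5 window held 2 matches, 1 on the minus strand that begins 222 bases before the start (AACAAAG as read on the plus strand) and 1 on the plus strand that begins 104 bases before it (CTTTGAT). The Axin2 and Nkd1 windows held none, nor did those of Tcf7 and Rnf43, so that 1 of 5 genes with a window had a match. Of all 27025 genes with such windows, 18.9% had a match. Counted by window, it was 1 of 7 for these genes and 16.9% of all 32851 windows of 300 bases. A match to 7 letters is a description of the sequence and not a binding site, and its absence here says nothing of sites elsewhere. Lgr5, Notum, Tbx3 and Znrf3 have no window in the table used.

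In the library labelled CD control, 79 of the 85 transgene-positive nuclei (at least 1 UMI of human c-MET or CTNNB1) were in the pericentral zone, 3 in the midzonal and 2 in the periportal zone, and 1 could not be placed. All 9 genes were higher in these nuclei than in the 7876 negative nuclei of the same library, by a median log2 ratio of 1.77 against -0.013 for all genes, and 9 of 9 passed the rule, with a background of 3.25% of genes. Positive nuclei were deeper, with a median of 7306 against 4756 UMIs. The negative nuclei can include oncogene-expressing ones from which no transgene UMI was captured.

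Positive nuclei had 97.1 CPM of Axin2 (76.7 to 121), and the negative ones 22.5 CPM (21.1 to 23.9), for a log2 ratio of 2.11 (1.76 to 2.44). Lgr5 was at 385 against 89.3 CPM, a ratio of 2.11 (1.94 to 2.27), Tbx3 at 229 against 57.2 CPM, 2.00 (1.78 to 2.22), and Rnf43 at 809 against 255 CPM, 1.67 (1.55 to 1.78). Nkd1, Tcf7 and Sp5 had only 33, 12 and 11 UMIs in positive nuclei and ratios of 1.86, 1.82 and 2.24. The smallest ratios were those of Notum, 1.45 (1.13 to 1.76), and Znrf3, 1.04 (0.90 to 1.18). An Axin2 UMI was seen in 51.8% of positive and 8.60% of negative nuclei, and in 10.7% and 2.21% after thinning.

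Much of this difference went with zone. Within the pericentral zone, the log2 ratio of the 9 genes together fell to 0.59 (0.51 to 0.66), from 2293 CPM in 79 positive and 1528 CPM in 2388 negative nuclei. Axin2 was higher by 0.69 (0.34 to 1.02), Tbx3 by 0.69 (0.47 to 0.91), Rnf43 by 0.65 (0.53 to 0.76) and Lgr5 by 0.58 (0.40 to 0.75), and the intervals of Nkd1, Tcf7 and Sp5 included 0. The negative nuclei were also weighted to the positive ones over 10 equal bins of this library's own zone index, not the common bins above. The ratio of the sum was then 0.039, with Axin2 at -0.088, Nkd1 at -0.66 and Notum at -0.042. Weighting by depth left it at 1.55. The markers of the zone index include β-catenin targets, so zone and β-catenin activity cannot be told apart in this weighting.

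**Figure D4:**
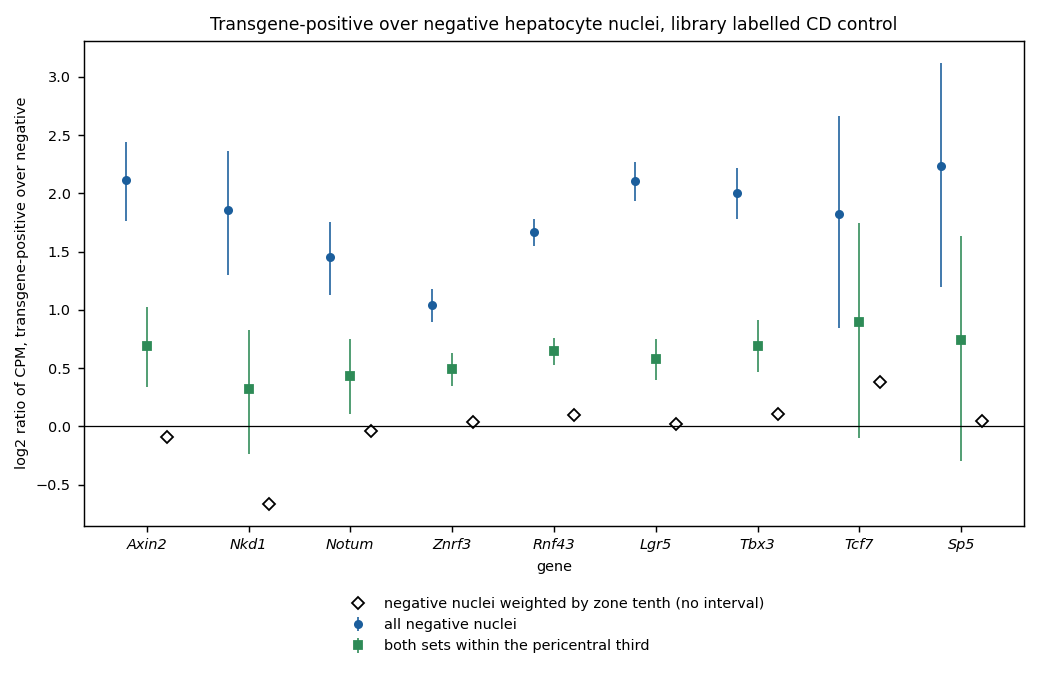
log2 ratio of CPM in positive over negative hepatocyte nuclei (vertical axis), all from the library labelled CD control, for each gene: all nuclei (circles), nuclei of the pericentral zone (squares), and negative nuclei weighted by bin of that library's own zone index (open diamonds). Error bars are exact conditional 95% intervals, and the weighted ratios have none. The ratios of 1.04 to 2.24 over all nuclei fall to 0.32 to 0.89 in the pericentral zone and to -0.66 to 0.38 when weighted.

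The 6 positive nuclei of LPD oncogene, 5 of them pericentral, gave counts only. They held 15 UMIs of Lgr5, 14 of Rnf43, 13 of Znrf3, 3 of Tbx3 and 2 of Notum, and none of Axin2, Nkd1, Tcf7 or Sp5, where 0 UMIs allow up to 111 CPM. In the library labelled CD control, 5 positive nuclei were placed outside the pericentral zone, and 3 of them held 31 UMIs of the 9 genes. Of these UMIs 10 were Lgr5, in 2 nuclei, and 11 were Rnf43, in 1 nucleus.

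In other cell classes, the 9 genes had separate patterns. Nkd1 was highest in stellate nuclei, the vitamin A-storing pericytes of the sinusoid, with 113, 121, 123 and 205 CPM from 115, 176, 65 and 50 UMIs, and was also seen in sinusoidal endothelial nuclei, with 45.6, 31.4, 61.6 and 68.8 CPM. Mesothelial nuclei had 27.8 to 103 CPM, from only 4 to 8 UMIs. In hepatocytes Nkd1 was at 0.969 to 11.9 CPM. Tcf7 was highest in the class of T or NK nuclei, with 72.2, 33.3, 160 and 282 CPM against 2.05 to 5.33 CPM in hepatocytes, and Znrf3 had 367, 255, 475 and 622 CPM there. Among stellate nuclei the Nkd1 interval of the library labelled CD control (92.9 to 135 CPM) overlapped those of the libraries labelled CD oncogene (104 to 140) and LPD control (94.6 to 156), and that of LPD oncogene (152 to 270) lay above it.

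Axin2, Notum, Lgr5, Tbx3 and Sp5 had few UMIs outside hepatocytes. Proliferating and mixed nuclei aside, Notum had at most 34.98 CPM (14 UMIs, T or NK) and Lgr5 at most 61.2 CPM (11 UMIs, mesothelial) in a class other than hepatocytes. Tbx3 reached 68.6 CPM in T or NK nuclei of LPD control, from 12 UMIs. How much of these counts is free RNA was not tested. Kupffer nuclei had 0 to 3.47 CPM of Axin2, 0 to 8.12 CPM of Lgr5 and 0 to 17.3 CPM of Notum.

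**Figure D5:**
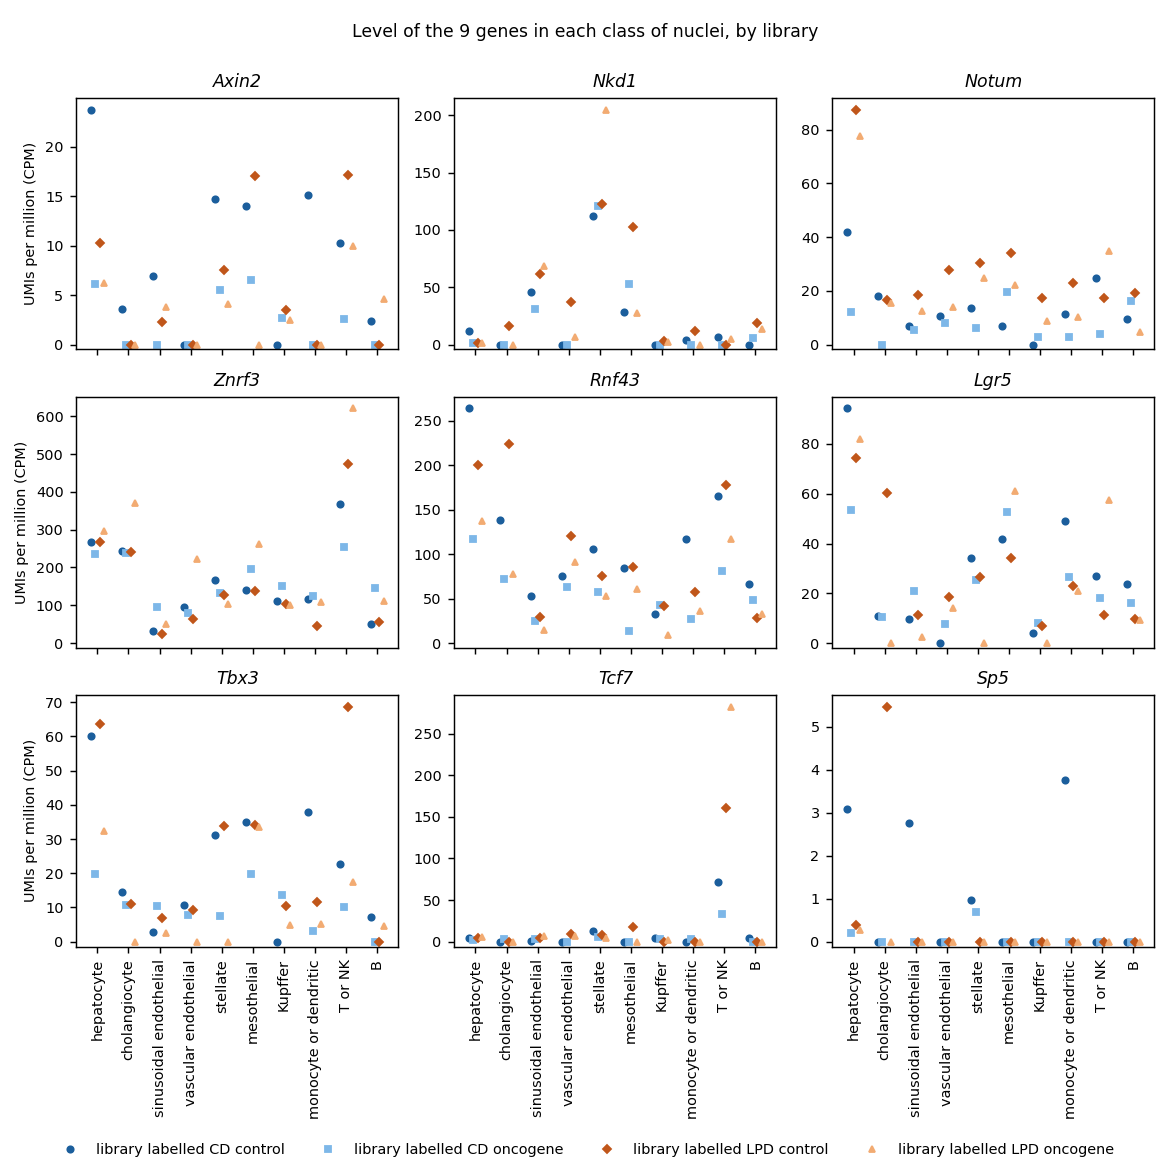
CPM of each gene (vertical axis) in 10 classes of nuclei (horizontal axis); points are libraries, with no error bars, and classes other than hepatocytes hold as few as 42 nuclei of a library. Nkd1 is highest in stellate nuclei (113 to 205 CPM) and Tcf7 in T or NK nuclei (33.3 to 282 CPM), while Notum is highest in hepatocytes of the LPD libraries (87.4 and 77.8 CPM).

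Other genes of the pathway, from a list of 30 components that are not members, showed little of this. In the CD pair and in the LPD pair 0 of 29 and 0 of 28 measurable components passed the fold in either direction, although Tcf7l1 came close in the CD pair, with a log2 ratio of 0.996 (0.95 to 1.05). Ctnnb1, which encodes mouse β-catenin, was at 64.0, 65.1, 72.1 and 62.2 CPM, and Apc, the scaffold of the destruction complex, at 129, 125, 135 and 128 CPM. Between the libraries labelled control, Tcf7l1, a TCF factor that mostly represses, was the 1 component higher on LPD, at 196 against 97.4 CPM, and between those labelled oncogene 0 of 29 passed.

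Along the zones, 3 components were lower pericentrally in all 4 libraries: Tcf7l1, Tle4, a Groucho co-repressor, and Ctnnbip1, which blocks the binding of β-catenin to TCF factors. They were 3 of 29, 28, 28 and 28 measurable components, and 2.62%, 2.02%, 1.9% and 2.51% of all genes were lower. Tcf7l1 fell from 184, 307, 280 and 313 CPM in the periportal zone to 15.8, 57.7, 75.2 and 93.0 CPM in the pericentral zone, the opposite slope to the 9 members. Ctnnbip1 fell from 36.5, 34.7, 47.3 and 28.6 CPM to 2.78, 4.87, 7.59 and 2.83 CPM. Lef1 and Tle1 were higher pericentrally by the rule in the library labelled CD control, Lef1 with 3.18 against 0.435 CPM and Tle1 with 356 against 149 CPM. Lef1 was also a leading gene of the T or NK cluster. The summed T cell markers of that library were 33.5 CPM pericentrally and 4.42 CPM periportally. The part of T cell RNA in the Lef1 counts was not tested. In positive nuclei of that library, Tle1 was higher, by 1.01, and Tcf7l1 and Ctnnbip1 lower, by log2 ratios of -2.73 and -2.90.

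Of 22 other β-catenin targets on the list, 8 were lower and 2 higher in the library labelled CD oncogene than in the one labelled CD control, of 18 measurable, where 2.94% and 2.1% of all genes were. Of the 8, 5 (Glul, Oat, Rhbg, Lect2 and Cyp1a2) are markers of the zone index. Glul was at 363, 71.1, 146 and 218 CPM. The 2 that were higher were Dkk3 and Myc, a regulator of growth, and Myc was at 3.80, 21.1, 3.04 and 26.4 CPM. Myc was thus high in the oncogene-labelled library of both diets, with log2 ratios of 2.47 (2.24 to 2.71) on CD and 3.12 (2.74 to 3.53) on LPD, unlike the 9 members and unlike the transgene UMIs, which on CD were found under the control label. On LPD, 3 of 16 were higher (Ccnd1, Myc and Slc1a2) and 0 lower, where 1.93% and 1.02% of all genes were. Between diets 6 of 18 were higher and 1 lower on LPD by the oncogene labels, with backgrounds of 9.74% and 5.53%, and 2 of 17 higher and 8 lower by the control labels, with 7.12% and 7.57%.

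Of the 15 of these targets that are not in the zone index, Tnfrsf19, Ahr, Nr1i3 and Slc13a3 were higher and Sox9 lower in the pericentral zone of all 4 libraries. Tnfrsf19, a receptor of the TNF family, was at 47.6, 14.6, 50.7 and 39.0 CPM pericentrally and at 0.684, 0.261, 4.56 and 3.44 CPM periportally. In positive nuclei, 79 of 85 of them pericentral, 10 of 17 measurable targets of the 22 were higher and 3 lower, with backgrounds of 3.25% and 9.69%. Of the 10, 7 are pericentral markers of the zone index, among them Glul at 1979 against 335 CPM.

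Over the 12 sets formed by 4 libraries and 3 zones, the genes whose log2(CPM + 5) was most like that of the 9 together, of 10660 ranked, were Tnfrsf19 (Pearson r = 0.98), Tbx3os1 (0.98), Npr2 (0.98), Slco1b2 (0.97) and Slc1a5 (0.97). The 12 sets share 4 libraries and the zone index, so r is a description. Among the members, r with the sum of the other 8 was 0.96 for Tbx3, 0.95 for Axin2, Tcf7 and Znrf3, 0.92 for Lgr5 and Rnf43, 0.80 for Nkd1, 0.78 for Notum and 0.70 for Sp5.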

How the data were processed

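Frozen mouse liver nuclei were measured by 3' snRNA-seq, 1 library per group, with groups taken from the sample labels. The authors deposited UMI counts per gene and barcode, which are not normalized. Per the file headers they were made with Cell Ranger 9.0.1, and the submitters' processing notes name mm10 and Seurat 5. Whether intronic reads were counted is not stated. The numbers of nuclei that the study states for the CD libraries lie nearer to those found under the opposite CD label.

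The deposited counts held 44010 barcodes and 23172463 to 62869348 UMIs per library. Nuclei with 200 to 7000 genes and at most 21% mitochondrial UMIs were kept. Between 18 and 40 barcodes (0.183% to 0.362% of the smaller library) were shared by pairs of libraries. Counts scaled to 10000 per nucleus gave 5000 variable genes, from which the 9 members and both transgenes were left out. A numpy version of Harmony, 23 components, 20 neighbours and Louvain resolution 0.4 gave the clusters. A cluster was named when at least 3 markers and 50% of a marker list were raised at least 3-fold, thresholds set after the counts were seen. Clusters that also had at least 75% of the hepatocyte marker level (1140 nuclei) were removed as mixed, and a cluster of 230 proliferating nuclei was kept apart. Scrublet's automatic threshold (scanpy 1.11.5) marked at most 0.0096% of nuclei and did not work, so removal of the 8% highest scores was an alternative. Hepatocyte nuclei with under 5 zone marker UMIs (560, 384, 147 and 658 per library) were not placed.

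Ratios are log2 ratios of CPM from summed counts, with exact conditional intervals. Levels have exact Poisson and shares exact Clopper-Pearson intervals, and 0 is given with the limit of 3 counts. A gene passed the fold at a log2 ratio of 1 or more with a pseudocount of 1 CPM and at least 50 UMIs in the sets compared. No test was possible with 1 library per group. On simulated counts for the CD pair (14149 genes), 95.0% of intervals held the true ratio, and 89 of 96 genes changed by 2 log2 units and 0 of 13955 unchanged genes passed the fold. These counts were Poisson draws from a pooled profile, the model that the intervals assume, without variation between libraries or nuclei. They check the calculation and say nothing of such variation. TMM factors came from edgeR 4.0.16. Positions are from GENCODE M21. Named genes were all 9 members, up to 4 of each pathway list by size of ratio, and the 5 most alike of genes with at least 500 UMIs. Ctnnb1, Apc and the other list genes named for passing the fold were chosen after their values were seen. The members and lists were chosen with earlier results of these data known. Alternatives were a stricter filter (at least 500 genes, at most 5% mitochondrial UMIs), TMM, totals without mitochondrial genes, mean nucleus CPM, clusters without correction, Scrublet removal, common zone limits, a periportal index, thinning to 1000 UMIs, 2 transgene UMIs, zone or depth weighting and, added after seeing the data, removal of positive nuclei.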

Additional observations from a re-analysis of the deposited data

How the results depend on the processing

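With 1 library per group, intervals cover counting error only, leaving out a replicate was not possible, and nothing below separates diet or oncogene from the library. No paired analysis was possible because each group is 1 library and the labels give no shared replicate numbers. Of the values of single genes under the alternatives, 542 moved by no more than their counting interval, 122 moved further in the same direction or without a call, and 5 changed sign. The 5 were Rnf43 between diets under the oncogene labels with TMM (-0.043), Tcf7 between zones of LPD oncogene with the periportal index (-0.24), and, in positive over negative nuclei weighted by zone, Axin2 (-0.088), Nkd1 (-0.66) and Notum (-0.042).

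The sum of the 9 genes, most of whose UMIs over all hepatocyte nuclei were those of Znrf3 and Rnf43, kept its sign under each alternative run. In the CD pair the log2 ratio was -0.998 with the stricter filter, -0.65 with TMM, -0.83 without mitochondrial genes in the total, -0.90 as mean nucleus CPM and -0.74 without positive nuclei. For LPD over CD under the oncogene labels it was 0.37 with the stricter filter, 0.25 with TMM, 0.48 without mitochondrial genes and 0.60 as mean nucleus CPM. Under the control labels it was -0.47 with the stricter filter, -0.23 with TMM, -0.20 without mitochondrial genes and -0.068 without positive nuclei. Pericentral over periportal in the library labelled CD control, it was 2.58 with the stricter filter, 2.35 with TMM, 2.36 without mitochondrial genes, 2.34 as mean nucleus CPM, 2.10 with common limits, 1.12 with the periportal index, 2.62 thinned and 2.38 without positive nuclei. In the library labelled CD oncogene it was 1.44 with TMM, 1.41 as mean nucleus CPM, 1.63 with common limits and 1.31 with the periportal index, in LPD control 1.72 with common limits and 1.22 with the periportal index, and in LPD oncogene 0.91 with the periportal index and 1.65 thinned. Positive over negative, it was 1.27 with the stricter filter, 1.51 with TMM, 1.46 with at least 2 transgene UMIs and 0.039 weighted by zone. The periportal index leaves out pericentral markers that are β-catenin targets. The cause of the other shifts was not tested.

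The background counts of genes past the fold in either direction depended on the pseudocount. With 5 CPM in place of 1 they went from 718 to 339 in the CD pair, 365 to 208 in the LPD pair, 2082 to 1073 and 1986 to 991 between diets (oncogene, then control labels), 548 to 326 between zones of the library labelled CD oncogene, and 1670 to 414 in positive nuclei. Without the filter on low counts, 473 became 745 between zones of LPD oncogene.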
